A study of Saccharomyces cerevisiae with 9 samples.

Results

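Of the 6256 yeast genes with a probe on the array, 48 gave a signal well above background in only one of the parental strains of a hybrid, and they are described here with their state in that hybrid. A gene counted as detected on an array when over 50% of its usable spots were marked by the scanner software as well above background. Members were detected on all 3 arrays of one parental strain and on no array of the other. By this criterion 29 genes were detected in Sun049T-Z only and 31 in Sun224T-K only. After mitochondrial genes, genes of the left arm of chromosome IX, several sugar transporter, maltase, cell wall and sodium pump families and FRE3, FIT2, PHR1 and PGU1 had been left out by name, 22 Sun049T-Z-only genes and 26 Sun224T-K-only genes remained. The parental arrays chose the members, so the parental difference is given as a description without a test. The Hyb-8 arrays took no part in the choice. A test of Hyb-8 against a parental strain still uses arrays that chose the members, so its p-value is no independent support.

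Sun049T-Z and Sun224T-K were industrial diploids (MATα/a), thermotolerant and acid tolerant respectively. Both carried XYL1, XYL2 and XKS1 for xylose use on a plasmid with a clonNAT marker, and 1 copy of HO had been replaced by a zeocin marker in Sun049T-Z and by a G418 marker in Sun224T-K. Hyb-8 was 1 selected colony from the mating of spores of both strains after UV treatment of the parental cultures. All strains fermented 50 g/L xylose under heat (38°C) and acid (acetic acid at 20 mM, formic acid at 15 mM). RNA was taken after 3 h and measured on 3 1-colour arrays per strain. The sources used here do not say if replicate arrays stand for separate fermentations, so the p-values measure the spread between arrays, which may be technical.

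The ends of yeast chromosomes, the subtelomeres, carry gene families whose copies differ in number and sequence between strains. They hold membrane proteins of the COS family, transporters, alcohol dehydrogenase relatives, phosphatases and flocculins, many with near-identical copies on other chromosomes. A probe designed from the reference strain reports the transcript only where the strain carries a sequence that binds it, so an undetected gene can be absent, different in sequence or not transcribed, and the array does not tell these apart.

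Levels are log2 intensities relative to the 75th percentile of the array, averaged over up to 7 spots per gene. The 75th percentile ranged from 1044 to 4830 intensity units over the 9 arrays, and between 90.2% and 96.5% of the spots passed the well-above-background mark. Among the arrays, Sun049T-Z replicate 1 stood apart with the lowest of these values, 2462 outlier spots against 393 to 709 elsewhere, and a median SD between spots of 1 gene of 0.32 against 0.051 to 0.067. It was also the single array of slide 1, as Hyb-8 replicate 2 was of slide 4. With Sun049T-Z replicate 1 left out, 32 genes met the Sun049T-Z-only criterion and 26 the Sun224T-K-only criterion, among them all 48 members. The labels call Sun224T-K and Hyb-8 PHO13 deleted, but the PHO13 probe was detected on all 9 arrays, at -3.78 ± 0.10 (SD, n = 3) where the label was Sun049T-Z, -1.56 ± 0.31 where it was Sun224T-K and -1.72 ± 0.02 where it was Hyb-8. Strain names and the directions drawn from them are therefore those of the labels throughout. HO was detected on 1, 1 and 0 arrays of the libraries labelled Sun049T-Z, Sun224T-K and Hyb-8.

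The groups had opposite states in the libraries labelled Hyb-8. Of the 22 Sun049T-Z-only genes, 21 were detected on no Hyb-8 array, 1 (YOL085C) on 1 array and 0 on all 3. Over all 5847 genes detected on all 3 Sun049T-Z arrays, 0.65% were detected on no Hyb-8 array and 98.4% on all 3. Of the 26 Sun224T-K-only genes, 23 were detected on all 3 Hyb-8 arrays, 3 on 2 arrays and 0 on none. Among the 5778 genes detected on all 3 Sun224T-K arrays, 99.7% were detected on all 3 Hyb-8 arrays and 0% on none, and among the 211 genes detected on no Sun049T-Z array 12.8% were detected on all 3. Of the 213 genes detected on no Sun224T-K array, 95.8% were detected on no Hyb-8 array and 0% on all 3, and of the 211 genes detected on no Sun049T-Z array 75.4% were detected on no Hyb-8 array. Both groups thus mostly had the state they had in Sun224T-K, as did the larger sets detected or undetected in Sun224T-K. The counts are therefore not read as a trait of the members. Before any gene was left out by name, 28 of 29 Sun049T-Z-only genes were detected on no Hyb-8 array and 27 of 31 Sun224T-K-only genes on all 3. The shares over the larger sets include these genes. The 28 are among the 38 genes behind the 0.65%, and the 27 are all of the 27 genes behind the 12.8%. With the scanner mark for a positive and significant signal in place of the mark well above background, 7 and 12 genes met the parental criterion, 5 and 11 of them among the members, and 0 of the 7 and all 12 were detected on all 3 Hyb-8 arrays. By that less strict mark, 17 of the 22 Sun049T-Z-only genes had a signal on at least 1 Sun224T-K array and 15 of the 26 Sun224T-K-only genes on at least 1 Sun049T-Z array, so not detected here means not well above background.

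**Figure D1:**
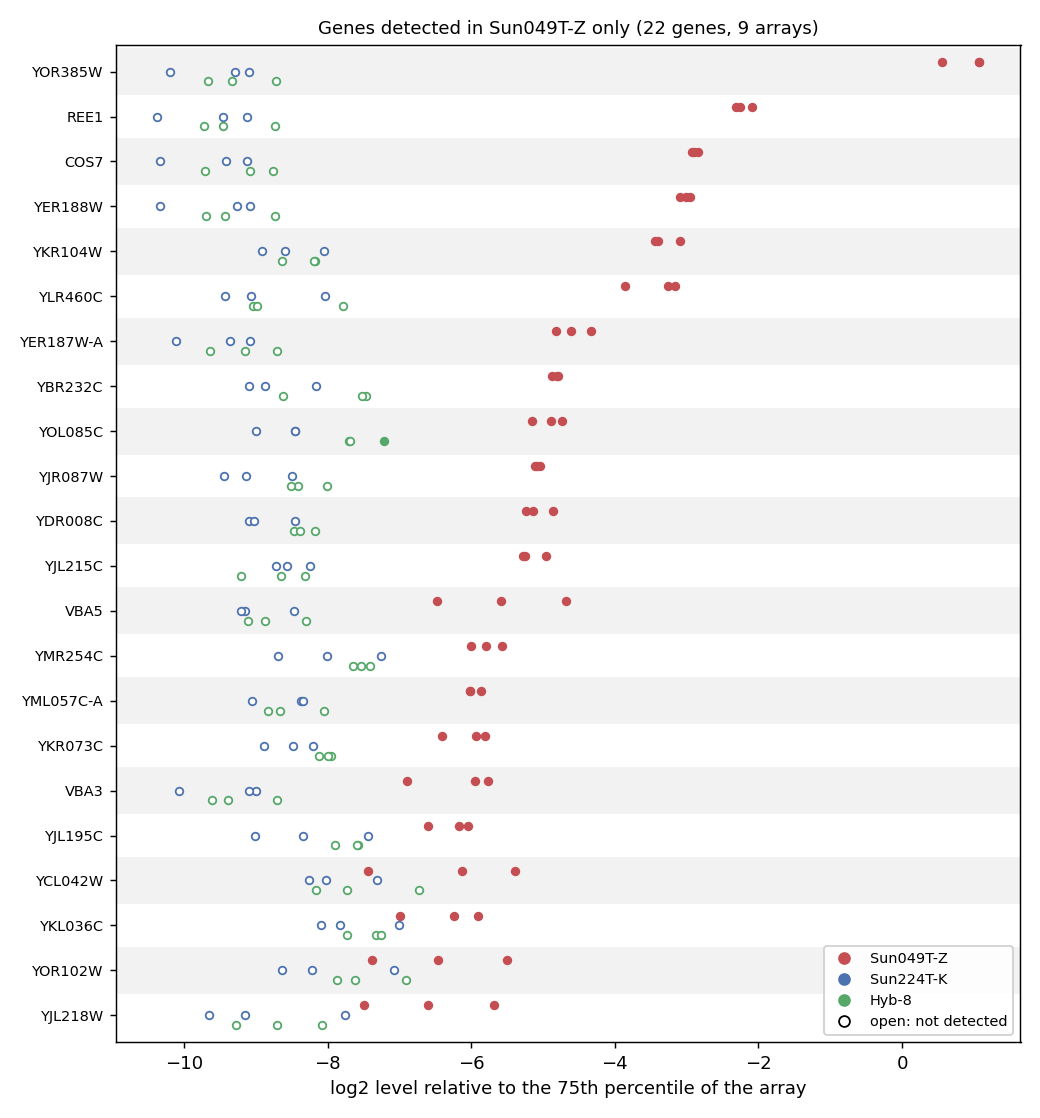
Level of the 22 Sun049T-Z-only genes on each of the 9 arrays, as log2 intensity relative to the 75th percentile of the array, 1 row per gene ordered by the level in Sun049T-Z, with open circles where the gene was not detected. The Hyb-8 circles are open in all rows except YOL085C, where 1 of 3 is filled, and the Sun049T-Z and Sun224T-K circles overlap only for YCL042W and YOR102W.

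YOR385W, an uncharacterized gene of the right end of chromosome XV, showed the widest parental gap of the Sun049T-Z-only genes. Its levels were 0.56, 1.08 and 1.07 in Sun049T-Z, against -9.29, -9.09 and -10.19 in Sun224T-K and -8.71, -9.33 and -9.67 in Hyb-8. The Sun049T-Z arrays thus lay far above all others, and the Hyb-8 and Sun224T-K arrays overlapped. Because an undetected probe has only an upper limit, folds against it are given as a minimum. It was computed against the higher of the probe's own level and the lowest level among detected probes on each array. This minimum holds for the scanner's processed signal only and can exceed the fold fitted with another background. With the normexp background the log2 difference of YOL085C in Hyb-8 against Sun049T-Z was -0.85, while its log2 bound for Sun049T-Z over Hyb-8 was 2.16. YOR385W had a Sun049T-Z level at least 348-fold that of Sun224T-K and at least 282-fold that of Hyb-8 (adjusted p = 1.17e-07 from limma for Hyb-8 against Sun049T-Z). This p-value and those below for other members use parental arrays that had helped to choose the genes, so they are descriptions only. PHR1, the photolyase gene next to it and left out by name, had levels of -1.77 ± 0.21 (SD, n = 3) in Sun049T-Z, against -9.58 ± 0.62 in Sun224T-K and -9.17 ± 0.47 in Hyb-8, detected on 3, 0 and 0 arrays.

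On the left end of chromosome X lay REE1, which takes part in the regulation of the enolase gene ENO1, and its neighbour YJL218W, which resembles bacterial acetyltransferases. REE1 was at -2.09, -2.32 and -2.26 on the Sun049T-Z arrays, against -9.46, -9.13 and -10.37 in Sun224T-K and -8.73, -9.46 and -9.72 in Hyb-8. The Sun049T-Z level was at least 39.9-fold that of Sun224T-K and at least 32.4-fold that of Hyb-8 (limma adjusted p = 4.71e-07). YJL218W was at -5.68, -6.60 and -7.50 in Sun049T-Z, and its bound against Sun224T-K was 1.92-fold. Its lowest Sun049T-Z array was above its highest Sun224T-K array, at -7.75, and its highest Hyb-8 array, at -8.08. YJL215C, a few genes further in on the same arm, had a parental bound of 5.18-fold.

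COS7, the outermost gene of the left end of chromosome IV, encodes a protein of the COS family of subtelomeric membrane proteins, which act in the turnover of cell surface proteins. Its levels were -2.89, -2.92 and -2.84 in Sun049T-Z, against -9.42, -9.12 and -10.33 in Sun224T-K and -8.76, -9.08 and -9.71 in Hyb-8. The spread over the Sun049T-Z arrays was small (SD 0.04, n = 3), and no array of another strain came near. The bounds were 25.1-fold over Sun224T-K and 20.4-fold over Hyb-8 (limma adjusted p = 7.07e-07). At the right end of chromosome V, YER188W and its neighbour YER187W-A showed the same states. YER188W was at -2.96, -3.00 and -3.09 in Sun049T-Z and between -9.69 and -8.73 in Hyb-8, at least 18.7-fold lower there. YER187W-A had bounds of 7.75-fold over Sun224T-K and 6.29-fold over Hyb-8.

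VBA3 and VBA5, members of a family of vacuolar basic amino acid transporters, lay near the left end of chromosome III and the right end of chromosome XI. VBA5 was at -4.67, -5.59 and -6.48 on the Sun049T-Z arrays and between -9.20 and -8.30 on all Sun224T-K and Hyb-8 arrays. VBA3 was at -5.76, -5.95 and -6.89 in Sun049T-Z and at or below -8.71 in Hyb-8. Each was next to a glutathione exchanger gene, GEX1 beside VBA3 and GEX2 beside VBA5. GEX1 and GEX2 were detected on all 3 Sun049T-Z arrays, 2 Sun224T-K arrays and all 3 Hyb-8 arrays and so were not members. These blocks are close copies in the reference strain and the probe sequences were not analysed here, so the signals of VBA3 and VBA5 cannot be told apart with certainty. On the other side of VBA5, YKR104W, annotated beside NFT1 as a further piece of the same ABC transporter reading frame, was at -3.09, -3.40 and -3.44 in Sun049T-Z and between -8.64 and -8.18 in Hyb-8, at least 15.2-fold lower (limma adjusted p = 3.98e-07). NFT1 itself was detected on 1 Sun049T-Z array and on no array of the other strains.

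YLR460C, a member of the quinone oxidoreductase family near the right end of chromosome XII, was at -3.86, -3.26 and -3.16 in Sun049T-Z, against -8.04, -9.07 and -9.43 in Sun224T-K and -7.79, -9.04 and -8.99 in Hyb-8. Its bounds were 17.3-fold over Sun224T-K and 14.1-fold over Hyb-8. YCR102C, of the same family, had the opposite states.

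The other Sun049T-Z-only genes lay mostly inside chromosome arms and many were open reading frames of the array design with no entry in the reference gene table used here. YBR232C was at -4.88, -4.80 and -4.79 on the Sun049T-Z arrays and at least 6.30-fold higher there than in Sun224T-K. In Hyb-8 its levels were -8.62, -7.47 and -7.52, undetected throughout. YJR087W was at -5.11, -5.04 and -5.09 in Sun049T-Z, with a parental bound of 5.50-fold. YOL085C alone was detected on a Hyb-8 array. Its levels were -4.73, -4.89 and -5.16 in Sun049T-Z, against -8.46, -8.99 and -8.45 in Sun224T-K and -7.70, -7.68 and -7.22 in Hyb-8, with replicate 3 as the detected array. All Hyb-8 arrays lay between the parental strains. The Sun049T-Z level was at least 4.47-fold that of Hyb-8. The limma fit called Hyb-8 higher than Sun224T-K (adjusted p = 0.0164), but the Sun224T-K arrays had helped to choose the gene, only 1 of these 6 arrays was well above background, and the bound was 1.00-fold, so no difference is read from it. The call was kept with the slide as a random block and lost as a fixed block, with the normexp background, after quantile normalization, with trend and robust in eBayes, and without Sun224T-K replicate 2 or Hyb-8 replicate 3.

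Across the Sun049T-Z-only genes, limma called 20 of 22 lower in Hyb-8 than in Sun049T-Z when a call required a 2-fold change and an adjusted p below 0.05, against 9.1% of the 5947 genes tested. The Sun049T-Z arrays in this comparison also chose the genes. All Hyb-8 arrays were below all Sun049T-Z arrays for 20 of 22, against 31.6% of all tested genes. The bound of Sun049T-Z over Hyb-8 had a median of 4.34-fold (range 1.56 to 282) and was at least 2-fold for 17 of 22. Taken at the measured levels, which in Hyb-8 were undetected signals for 21 genes and so give no size, the log2 difference had a median of -3.11 (range -10.14 to -1.02), against 0.027 over all tested genes. YCL042W and YOR102W were not called. YCL042W was at -5.38, -6.13 and -7.44 in Sun049T-Z and -6.73, -7.73 and -8.16 in Hyb-8 (limma adjusted p = 0.0727), and YOR102W was at -5.50, -6.46 and -7.38 against -6.90, -7.86 and -7.62 (adjusted p = 0.119). For both genes the Hyb-8 arrays overlapped those of Sun049T-Z. The parental arrays overlapped as well, although the marks differed, and the brightest Sun049T-Z array for both was replicate 1. Within slides 2 and 3, which held all 3 strains, all 22 genes were lower in Hyb-8 than in Sun049T-Z. With the normexp background correction all 22 were still lower in Hyb-8 than in Sun049T-Z but 7 were called, and the median at the measured levels was -0.81.

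Against Sun224T-K, in which these genes were not detected either, 1 of the 22, YOL085C, was called higher in Hyb-8 and 0 lower, against 0.858% and 0.387% of all tested genes. An unadjusted p under 0.05 was reached by 5 of them upward and 0 downward, against 12.3% and 10.3% of all tested genes. Apart from the 1 Hyb-8 array that detected YOL085C, these differences lie between signals not well above background and set no order.

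**Figure D2:**
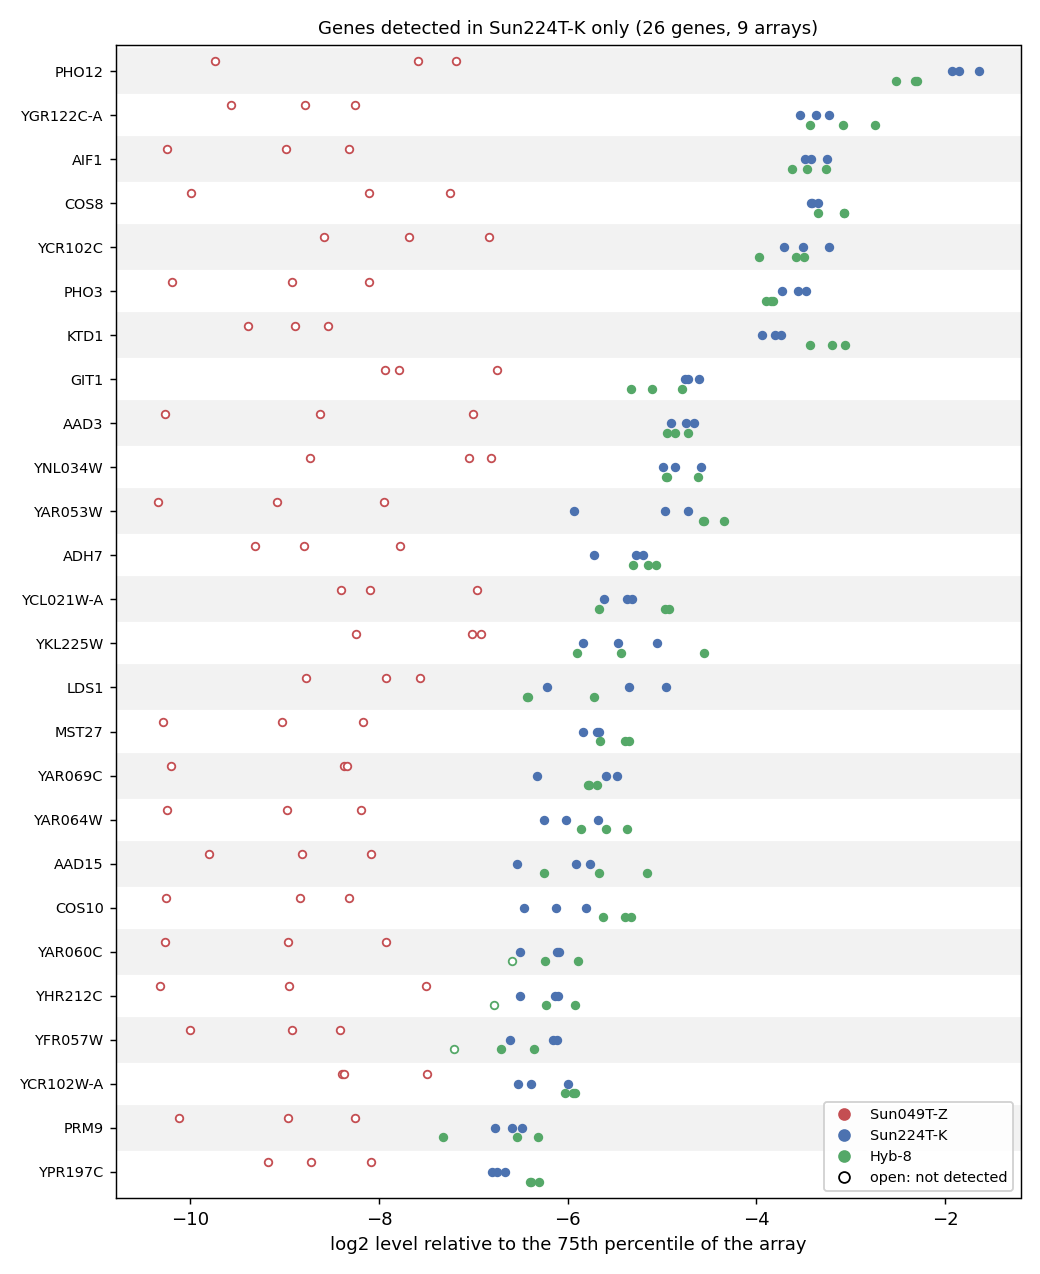
Level of the 26 Sun224T-K-only genes on each of the 9 arrays, as log2 intensity relative to the 75th percentile of the array, 1 row per gene ordered by the level in Sun224T-K, with open circles where the gene was not detected. Sun049T-Z circles are open throughout and lie to the left, and the 3 open Hyb-8 circles are those of YAR060C, YHR212C and YFR057W.

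Among the Sun224T-K-only genes, the secreted acid phosphatases PHO12 and PHO3 release phosphate outside the cell. PHO12, near the right end of chromosome VIII, was at -1.85, -1.93 and -1.64 in Sun224T-K and -2.32, -2.30 and -2.52 in Hyb-8, against -7.19, -7.58 and -9.74 in Sun049T-Z. The Hyb-8 arrays were all below the Sun224T-K arrays, as for 3 of the 26 genes and 14.9% of all tested genes. Hyb-8 and Sun224T-K were both well above Sun049T-Z. PHO12 exceeded its Sun049T-Z level at least 38.6-fold in Sun224T-K and at least 25.9-fold in Hyb-8 (limma adjusted p = 2.16e-05). Hyb-8 differed from Sun224T-K by -0.58 on the log2 scale (95% interval -1.77 to 0.62, adjusted p = 0.565). Its near-identical copy PHO11, at the right end of chromosome I, was detected on all 9 arrays, with -1.49 ± 0.17 (SD, n = 3) in Sun049T-Z, against -0.27 ± 0.18 in Sun224T-K and -0.61 ± 0.10 in Hyb-8. The probe sequences were not analysed here, so it is not known if the PHO11 signal includes PHO12 transcript.

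PHO3, the constitutively expressed acid phosphatase, lies inside the right arm of chromosome II. It was at -3.73, -3.56 and -3.48 in Sun224T-K, -3.82, -3.85 and -3.90 in Hyb-8 and -8.11, -8.93 and -10.20 in Sun049T-Z. The bounds over Sun049T-Z were 11.2-fold for Sun224T-K and 9.30-fold for Hyb-8. Its tandem neighbour PHO5, the phosphate-repressed enzyme, was detected on all 9 arrays and went the other way, at -3.03 ± 0.23 (SD, n = 3) in Sun049T-Z, against -4.58 ± 0.13 in Sun224T-K and -4.60 ± 0.29 in Hyb-8, with a call against Sun049T-Z. Of the 4 acid phosphatase genes listed, 2 were called higher (PHO3 and PHO12) and 1 lower (PHO5) in Hyb-8 than in Sun049T-Z, where 9.37% and 9.1% of all tested genes were called, and 0 were called against Sun224T-K. Both genes called higher were members, which the Sun049T-Z arrays had helped to choose.

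The right end of chromosome III held 5 Sun224T-K-only genes among its outermost 20. They were AAD3, of the aryl-alcohol dehydrogenase family, ADH7, an NADPH-dependent medium-chain alcohol dehydrogenase, YCR102W-A, YCR102C and GIT1, the glycerophosphoinositol permease of the plasma membrane. All 20 outermost genes were detected on all 3 arrays of Sun224T-K and of Hyb-8, and 14 on all 3 arrays of Sun049T-Z. YCR102C was at -3.51, -3.23 and -3.71 in Sun224T-K, -3.50, -3.98 and -3.58 in Hyb-8 and -6.84, -7.68 and -8.59 in Sun049T-Z. It exceeded Sun049T-Z at least 12.1-fold in Sun224T-K and at least 10.5-fold in Hyb-8, and the Sun224T-K and Hyb-8 arrays overlapped.

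GIT1 was at -4.76, -4.61 and -4.73 in Sun224T-K, -5.33, -5.11 and -4.79 in Hyb-8 and -6.75, -7.79 and -7.93 in Sun049T-Z, with a parental bound of 5.07-fold. As for PHO12, all Hyb-8 arrays lay below all Sun224T-K arrays, by 0.38 in the fitted log2 mean (95% interval of Hyb-8 minus Sun224T-K -1.01 to 0.25). AAD3 was at -4.90, -4.66 and -4.75 in Sun224T-K, -4.72, -4.95 and -4.86 in Hyb-8 and -7.01, -8.63 and -10.27 in Sun049T-Z. ADH7 exceeded Sun049T-Z at least 3.20-fold in Sun224T-K and at least 3.73-fold in Hyb-8. PAU3, between ADH7 and YCR102W-A, was detected on all 9 arrays at -1.73 ± 0.22 (SD, n = 3) in Sun049T-Z and -1.71 ± 0.09 in Sun224T-K. RDS1, a drug sensitivity regulator between AAD3 and ADH7, was no member because 2 Sun049T-Z arrays detected it. Its levels were -6.94 ± 2.14 there, against -1.05 ± 0.16 in Sun224T-K and -1.01 ± 0.11 in Hyb-8.

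The aryl-alcohol dehydrogenase family had a second member, AAD15, near the left end of chromosome XV, at -5.92, -6.54 and -5.77 in Sun224T-K, -6.25, -5.16 and -5.67 in Hyb-8 and at or below -8.09 in Sun049T-Z. Of the 6 AAD genes with a probe, 3 were called higher (AAD3, AAD4 and AAD15) and 1 lower (AAD6) in Hyb-8 than in Sun049T-Z, against 9.37% and 9.1% of all tested genes, and 1 (AAD10) was called higher than in Sun224T-K, against 0.858%. Of the genes called, AAD3 and AAD15 were members, which the Sun049T-Z arrays had helped to choose.

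COS8, at the left end of chromosome VIII, and COS10, at the right end of chromosome XIV, were detected where COS7 was not. COS8 was at -3.42, -3.34 and -3.42 in Sun224T-K, -3.08, -3.34 and -3.07 in Hyb-8 and -7.25, -8.10 and -9.99 in Sun049T-Z. The bounds over Sun049T-Z were 12.9-fold for Sun224T-K and 15.1-fold for Hyb-8 (limma adjusted p = 4.28e-05). COS10 was at -6.47, -5.81 and -6.12 in Sun224T-K and -5.40, -5.63 and -5.33 in Hyb-8. Next to COS10 lay AIF1, the yeast homologue of the apoptosis-inducing factor, at -3.42, -3.25 and -3.48 in Sun224T-K, -3.27, -3.62 and -3.46 in Hyb-8 and -8.32, -8.98 and -10.25 in Sun049T-Z. The Sun224T-K and Hyb-8 arrays of AIF1 overlapped, and their bounds over Sun049T-Z were 12.9-fold and 12.3-fold. Among the 11 COS genes with a probe, 5 were called higher (COS2, COS3, COS6, COS8 and COS10) and 2 lower (COS1 and COS7) in Hyb-8 than in Sun049T-Z, against 9.37% and 9.1% of all tested genes. Of these, COS7, COS8 and COS10 were members, which the Sun049T-Z arrays had helped to choose. None of the 11 was called against Sun224T-K in either direction.

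KTD1, PRM9 and MST27 belong to the DUP240 family of membrane proteins, a grouping made after the values were seen. KTD1 protects cells against the K28 killer toxin, PRM9 is induced by pheromone, and MST27 binds coat proteins of transport vesicles. KTD1 was at -3.81, -3.94 and -3.74 in Sun224T-K, -3.06, -3.43 and -3.20 in Hyb-8 and -8.55, -8.89 and -9.39 in Sun049T-Z. Its Hyb-8 arrays were all above its Sun224T-K arrays, as for 6 of the 26 genes and 15.5% of all tested genes. The gap was 0.60 ± 0.20 (fitted difference ± SE, limma adjusted p = 0.115), the single unadjusted p under 0.05 among the 26 genes. In Hyb-8 KTD1 exceeded Sun049T-Z at least 14.4-fold. The parental bounds of MST27 and PRM9 were 2.54-fold and 1.38-fold. The neighbours of KTD1 and PRM9 in the same family, UIP3 and MST28, were detected on all 9 arrays and were highest in Sun049T-Z. UIP3 was at -0.15 ± 0.06 (SD, n = 3) in Sun049T-Z, against -2.28 ± 0.16 in Sun224T-K and -1.66 ± 0.08 in Hyb-8, and MST28 at -3.73 ± 0.02, -5.83 ± 0.11 and -5.62 ± 0.18.

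YGR122C-A and YNL034W lay inside the arms of chromosomes VII and XIV. YGR122C-A was at -3.23, -3.54 and -3.37 in Sun224T-K, -3.43, -2.75 and -3.09 in Hyb-8 and -8.26, -8.79 and -9.57 in Sun049T-Z, at least 13.0-fold and 15.9-fold higher than in Sun049T-Z. YNL034W was at -4.87, -4.59 and -4.99 in Sun224T-K and -4.61, -4.95 and -4.95 in Hyb-8, with a bound of 4.79-fold over Sun049T-Z. LDS1, a lipid droplet protein that takes part in spore wall assembly, was at -4.96, -6.22 and -5.35 in Sun224T-K, -6.42, -5.72 and -6.43 in Hyb-8 and -7.92, -7.57 and -8.78 in Sun049T-Z. It was the member whose Hyb-8 level was furthest below Sun224T-K, by 0.68 in the fitted log2 mean, with overlapping arrays. Of the 53 meiosis and sporulation genes tested, Hyb-8 was called higher than Sun049T-Z for 10 and lower for 4, against 9.37% and 9.1% of all tested genes. It was called higher than Sun224T-K for 4 and lower for 0, against 0.858% and 0.387%. LDS1 was among the genes called higher than Sun049T-Z, whose arrays had helped to choose it, and was not called against Sun224T-K.

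The 3 members not detected on every Hyb-8 array were YAR060C, YHR212C and YFR057W, and each was missed on Hyb-8 replicate 1. That array had the lowest 75th percentile of the Hyb-8 arrays, 1634 intensity units against 2188 and 2548, and its part in these states was not tested. YAR060C was at -6.12, -6.50 and -6.09 in Sun224T-K and -6.60, -5.89 and -6.24 in Hyb-8. YHR212C was at -6.13, -6.51 and -6.11 in Sun224T-K and -6.79, -5.92 and -6.23 in Hyb-8, close to YAR060C on each of these arrays. The probe sequences were not analysed here, so the signals of YAR060C and YHR212C cannot be told apart with certainty. YFR057W, the outermost gene at the right end of chromosome VI, was at -6.16, -6.62 and -6.11 in Sun224T-K and -7.21, -6.36 and -6.71 in Hyb-8. Hyb-8 replicate 1 was the lowest Hyb-8 array for all of them, and Sun224T-K replicate 2 the lowest Sun224T-K array. For these genes the Hyb-8 and Sun224T-K arrays overlapped.

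For all 26 Sun224T-K-only genes limma called Hyb-8 higher than Sun049T-Z, against 9.37% of all tested genes, and for all 26 every Hyb-8 array was above every Sun049T-Z array, against 34.1%. As above, the Sun049T-Z arrays had taken part in the choice. The bound of Hyb-8 over Sun049T-Z had a median of 3.56-fold (range 1.25 to 25.9) and was at least 2-fold for 20 of 26. All 26 were also higher within slides 2 and 3, and all 26 stayed higher with the normexp background, where 9 were called. The Sun224T-K arrays had taken part in the choice too. Against Sun224T-K, 0 of 26 were called lower and 0 higher by limma, where 0.387% and 0.858% of all tested genes were called. An unadjusted p under 0.05 was reached by 0 downward and 1 upward, against 10.3% and 12.3%. The median difference of Hyb-8 from Sun224T-K was 0.10 (range -0.68 to 0.72), with 14 of 26 above 0 and a median of 0.014 over all tested genes. The fitted difference was within 0.5 for 21 of 26. Few of all tested genes were called against Sun224T-K, so these counts are not read as a trait of the members. A missed threshold does not show equal levels, and the 95% interval of the difference lay within -1 to 1 for 6 of the 26 genes and above -1 for 16.

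**Figure D3:**
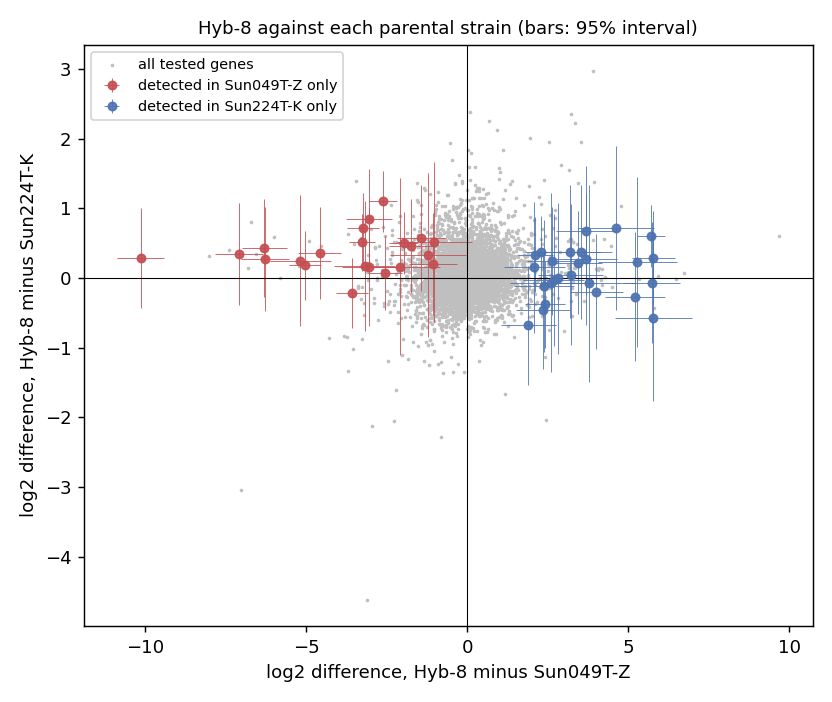
Fitted log2 difference of Hyb-8 from Sun049T-Z (horizontal axis) and from Sun224T-K (vertical axis) for all 5947 tested genes, with the 22 Sun049T-Z-only and 26 Sun224T-K-only genes coloured and bars for the 95% interval. The axes share the Hyb-8 arrays, and undetected signals enter at their measured level, so that a position along the horizontal axis gives no size for the coloured genes. The Sun049T-Z-only genes span -10.14 to -1.02 and the Sun224T-K-only genes 1.90 to 5.79 horizontally, and the latter span -0.68 to 0.72 vertically.

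Apart from the genes left out by name, which include the left arm of chromosome IX and families common at chromosome ends, position took no part in the choice, and the shares for comparison leave out the same names. In the gene order given by the systematic names, 11 of the 22 Sun049T-Z-only genes and 19 of the 26 Sun224T-K-only genes were among the outermost 20 genes of a chromosome arm, against 9.6% of 5988 nuclear genes. Among the outermost 5 were 6 and 11 of them, against 2.2%. The Sun224T-K-only genes held 3 outermost genes, AAD3, YFR057W and YKL225W, and the Sun049T-Z-only genes 1, COS7. No arm end held genes of both groups among its outermost 20. On chromosome I lay 7 of the Sun224T-K-only genes, of which PRM9, YAR053W, YAR060C, YAR064W and YAR069C were among the outermost 20 of the right end. Of those 20 genes, 8 were detected on all 3 Sun049T-Z arrays, 14 on all 3 Sun224T-K arrays and 13 on all 3 Hyb-8 arrays.

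Members lay next to a member of their own group in 6 of 22 and 6 of 26 cases. YER187W-A and YER188W, YJL218W and REE1, and YKR104W and VBA5 were pairs of the Sun049T-Z-only group, and YAR053W and YAR060C, YCR102C and YCR102W-A, and AIF1 and COS10 of the Sun224T-K-only group. All neighbours were detected on all 6 parental arrays for 12 of 22 and 11 of 26 members, against 84.3% of nuclear genes. Such members with detected neighbours included YOL085C, beside ADH1 and PHM7, and YBR232C, beside PBP2 and SWC5. Of the members, 9 of 22 and 8 of 26 had no entry in the reference gene table, against 8.15% of genes. Leaving these out, 9 of the 13 remaining Sun049T-Z-only genes and 12 of the 18 remaining Sun224T-K-only genes were among the outermost 20, against 9.2%.

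**Figure D4:**
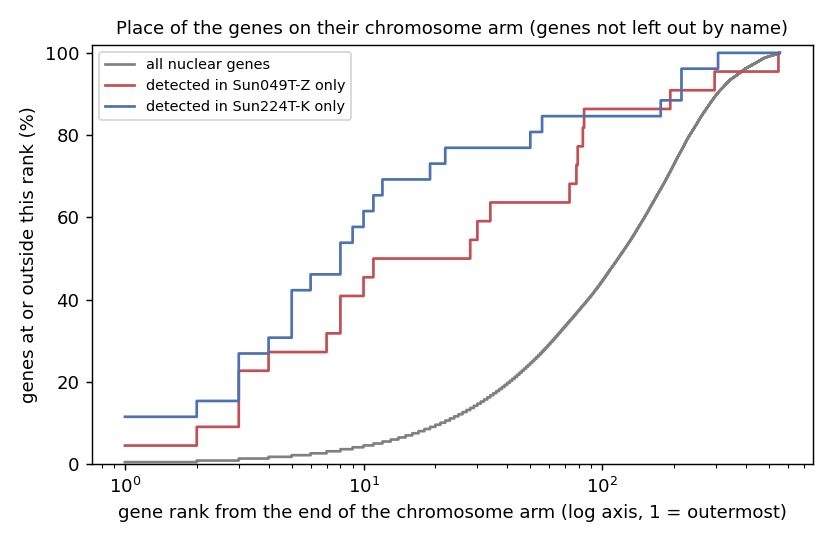
Cumulative percent of genes (vertical axis) by rank in gene order from the end of their chromosome arm (horizontal axis, log scale, 1 is the outermost gene) for all nuclear genes not left out by name and both groups. At rank 20 the line of all nuclear genes is at 9.6% and those of the Sun049T-Z-only and Sun224T-K-only genes are at 50.0% and 73.1%.

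The bound of the parental difference varied widely within each group. The bound was at least 2-fold for 19 of 22 Sun049T-Z-only and 19 of 26 Sun224T-K-only genes, at least 8-fold for 6 and 7, and at least 16-fold for 6 and 1, the latter being PHO12. The median bound was 5.34-fold and 3.10-fold. These bounds rest on the lowest detected level of each array of the strain without the gene. It was -7.33, -6.94 and -8.35 in Sun224T-K and -6.35, -6.83 and -8.05 in Sun049T-Z. The bounds are therefore not compared in size between the groups. Nearest the detection threshold were the Sun049T-Z-only genes YJL218W, YOR102W and YKL036C, with means of -6.59, -6.44 and -6.38 in Sun049T-Z, and the Sun224T-K-only genes YPR197C, PRM9 and YCR102W-A, with -6.74, -6.61 and -6.31 in Sun224T-K. Just outside the criterion, 12 genes were detected on 2 Sun049T-Z arrays and no Sun224T-K array and 11 on 2 Sun224T-K arrays and no Sun049T-Z array. The former included YJL032W, at -6.81, -6.22 and -6.05 in Sun049T-Z, YNL105W and YBL073W, and the latter YKL131W, at -6.77, -7.15 and -7.19 in Sun224T-K, YGR290W and YNR042W. A further 11 genes were detected on all 3 Sun049T-Z arrays and 1 Sun224T-K array, and 13 on all 3 Sun224T-K arrays and 1 Sun049T-Z array. Membership near the threshold thus turned on the mark of 1 array. Without Sun049T-Z replicate 3, 39 genes met the Sun224T-K-only criterion and 35 of them were detected on all 3 Hyb-8 arrays.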

How the data were processed

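Total RNA of both parental strains and Hyb-8 was hybridised to 9 1-colour Agilent arrays, 3 per strain. The authors deposited the scanner output (Agilent Feature Extraction 10.1.1.1), whose spot intensities are background-subtracted and linear. A processed table from GeneSpring GX was deposited too, with log2 values centred per probe, and served as an alternative only.

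After removal of control and outlier spots, each spot's log2 intensity was set relative to the array's 75th percentile and averaged per probe. Probes detected on all 3 arrays of at least 1 strain were tested (5947 genes, 309 not). All 48 members passed this filter because the detection rule requires it. Tests used limma 3.58.1 (lmFit and eBayes) in R 4.3.3 over all 9 arrays with strain as the single term and Benjamini-Hochberg adjustment over all tested genes. The test was tested on simulated data. Gene names came from a RefSeq table of assembly R64, used for names only (5756 of 6256 genes matched), and gene order from the systematic names, so no coordinates or sequences are given. Named genes were the 10 with the largest parental bound per group, those with an uncommon Hyb-8 state, those next to another member or in a gene list, and the 3 nearest the detection threshold, with others in the text chosen after their values were seen. The members and lists were chosen with earlier results of these data known. Lists holding members were the COS family, the aryl-alcohol dehydrogenase family, acid phosphatases, meiosis and sporulation genes, and killer toxin and other subtelomeric single genes. Of the 12 genes of the last with a probe, Hyb-8 was called higher than Sun049T-Z for 5 and lower for 3 (9.37% and 9.1% of all tested genes), and higher than Sun224T-K for 0 and lower for 2 (0.858% and 0.387%). The members ADH7 and AIF1, which the Sun049T-Z arrays had helped to choose, were among those called higher than Sun049T-Z. The normexp alternative used the median spot signal, since the scanner files used here hold no mean signal. Alternatives concerned detection, background, normalization, blocks and left-out arrays. The number of arrays limits the precision.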

Additional observations from a re-analysis of the deposited data

How the results depend on the processing

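The rule for detection moved the number of members. Detection by at least 1 usable spot gave 13 Sun049T-Z-only genes, and the mark for a positive and significant signal gave 7, with 12 Sun224T-K-only genes of which 12 were detected on all 3 Hyb-8 arrays. With 1 array left out in turn, 22 to 32 and 26 to 39 genes met the criteria, and 23 to 35 Sun224T-K-only genes were detected on all 3 Hyb-8 arrays, the highest number without Sun049T-Z replicate 3. In these fits 19 to 22 Sun049T-Z-only genes were called lower than in Sun049T-Z and 26 to 26 Sun224T-K-only genes higher. The single call of a Sun049T-Z-only gene over Sun224T-K ranged from 0 to 2, with 0 without Sun224T-K replicate 2 or Hyb-8 replicate 3 and 2 without Hyb-8 replicate 1, which added YBR232C. It was also 0 with normexp, quantile normalization, eBayes with trend and robust, and the slide as a fixed block.

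With the normexp background, 7 Sun049T-Z-only genes were called lower and 9 Sun224T-K-only genes higher than in Sun049T-Z, and the median differences from the strain that had the gene were -0.81 and 0.43. This setting changed the background correction, added an offset of 50 and took the median spot signal in place of the scanner's processed signal, and which of these moved the calls was not tested. The Sun224T-K-only median was -0.065 after quantile normalization. Leaving out 1 array, the medians ranged from -3.29 to -2.94 and from 0.031 to 0.18. For 35 named genes, 1281 of 1313 values under an alternative kept their side of the threshold, 29 lost the call, 3 gained it and 0 reversed a call, while 46 values without a call changed sign. The cause of these changes was not tested. When only the 2 strains compared were fitted, no Sun049T-Z-only gene could be tested against Sun224T-K, and 23 Sun224T-K-only genes could be tested against Sun049T-Z, all called.

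Same-numbered arrays deviated from their strain means with correlations between -0.25 and 0.15, so the numbers did not pair the arrays. With a replicate block, 22 Sun049T-Z-only genes were called lower than in Sun049T-Z and 1 higher than in Sun224T-K, and 26 Sun224T-K-only genes were called higher than in Sun049T-Z and 0 lower than in Sun224T-K. Probes not well above background set the limit, since they give only bounds.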
